A study of Homo sapiens with 16 samples.

Results

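The genes described are the replication origin and fork machinery, 47 genes chosen by symbol from the published roles of their products, with earlier results of these tumors known. All 47 were among the 23260 gene symbols with deposited values, and all 47 were among the 13426 genes left after removal of genes with low values. They were measured by RNA sequencing in 16 tumors of A375, a human melanoma cell line with mutant BRAF, that grew on the left (L) and right (R) flanks of NOG mice, a strain that lacks most lymphoid cells. Tumors were taken on day 5 of intraperitoneal treatment. JQ1, an inhibitor of BET bromodomain proteins, was given at 50 mg/kg per day. Vemurafenib, an inhibitor of mutant BRAF, was given at 25 mg/kg per dose with 2 doses per day. Mice received both drugs together (J+V), JQ1 alone (J), Vemurafenib alone (V) or vehicle (control). Each group held 4 tumors from 2 mice, and every group carried the same A375 line, so the groups stand for 1 cell line and not for several donors. Values within a group are given below in a fixed order of tumors, which is 33L, 33R, 34L and 34R for J+V, 26L, 26R, 29L and 29R for J, 16L, 16R, 19L and 19R for V, and 2L, 2R, 5L and 5R for control, where the number is the mouse. Since the tumors of a mouse share a host, p-values measure the spread between tumors of only 2 mice per group.

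Replication starts where the origin recognition complex (ORC) sits on DNA. With CDC6 and CDT1 it loads the ring-shaped MCM2-7 helicase in G1, which is called licensing, and geminin blocks CDT1 once S phase has begun. The DBF4-dependent kinase then turns the loaded ring into an active helicase together with CDC45 and the GINS complex. Polymerase alpha-primase lays down primers, polymerases epsilon and delta extend them on the sliding clamp PCNA, RPA coats single-stranded DNA, FEN1 and LIG1 join the lagging strand, and TIMELESS, TIPIN and CLSPN steady the fork. Transcription of many of these genes rises in cycling cells through E2F factors, so their RNA is low in tissue that does not divide.

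The values are FPKM, in which fragments are normalised for the length of the transcript and for the depth of the library, so that genes of different length can be set side by side. How many reads lie behind a value is unknown, and intervals for counting error could not be given. Over the whole table the FPKM added up to 1223331 to 1406986 in J+V tumors, 1191325 to 1287101 in J tumors, 1033865 to 1383426 in V tumors and 970443 to 1281006 in control tumors. Of the 8 melanoma markers examined, 5 were measured above the filter. The summed FPKM of all 8 was 82.3 to 116 in J+V tumors, 52.0 to 63.5 in J tumors, 58.2 to 65.8 in V tumors and 45.9 to 63.6 in control tumors. Most of this difference was S100B, which averaged 54.6 ± 12.3 FPKM in J+V tumors and 16.7 ± 4.23 in control tumors (SD, n = 4 each, log2 fold change 1.68, adjusted p = 4.84e-05). MLANA rose by 0.55 (adjusted p = 0.0143), whereas SOX10, MITF and BRAF were not called (adjusted p = 0.0873, 0.218 and 0.222). Of the pigment markers, DCT was listed at 0 in all 16 tumors, and PMEL and TYR averaged below 1 FPKM. The summed level of 6 fibroblast markers was 62.4 to 115 in J+V tumors, 57.3 to 74.1 in J tumors, 55.5 to 112 in V tumors and 36.2 to 121 in control tumors. These sums overlapped, but within them DCN, LUM and PDGFRB rose in J+V against control (log2 fold changes of 1.67, 1.61 and 0.72, with adjusted p of 0.0118, 0.000833 and 0.0192), while the collagens COL1A1, COL1A2 and COL3A1 were not called (adjusted p = 0.769, 0.756 and 0.196). DCN, LUM and PDGFRB, markers of another cell type, also averaged higher in J and V tumors than in control tumors. LUM averaged 11.5 FPKM in J, 6.26 in V and 4.17 in control tumors. In the same order DCN averaged 9.21, 8.62 and 4.47 FPKM, and PDGFRB 4.97, 4.34 and 3.33 FPKM. Higher means of these markers were thus not limited to J+V tumors, although limma called 0 genes in J or V against control. The 5 endothelial markers each averaged below 1 FPKM. The host was a mouse and reads were mapped to the human genome, so these fibroblast and endothelial values do not measure host tissue. Whether they came from A375 cells or from mouse reads was not tested. In whole tumors a smaller share of dividing cells and less RNA of a gene per cell cannot be told apart, and the part of the marker differences in the results below was not tested.

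Promoters were examined first, for a feature that the choice of genes did not use. Windows of 300 bases, from 250 bases before to 50 bases after an annotated RefSeq start (GRCh38.p14), were at hand for 41 of the 47 genes. An E2F-like word (TTTCGCGC, TTTGGCGC, TTTCCCGC or TTTGCCGC, on either strand, where words may overlap) was found in at least 1 window of 22 of these 41 genes (53.7%), against 1090 of the 27305 genes with a window (3.99%). The NFY word CCAAT was found in 25 of 41 (61.0%), against 39.7% of all genes. The CHR word TTTGAA was found in 1 of 41 (2.44%), against 18.2% of all genes. These shares of all genes include genes below the filter on low values, which the 47 genes had all passed. A word in a window is a match of letters and not a bound site. Of the 35 genes with a window that J+V tumors had at a lower level than control tumors (tested below), 21 had an E2F-like word, and of the 6 others 1 had it. The median log2 fold change was -0.86 among the 22 genes with the word and -0.76 among the 19 without it. For the NFY word the medians were -1.04 among the 25 genes with it and -0.77 among the 16 without it. For the CHR word they were -0.69 in the 1 gene with it and -0.78 among the 40 without it. The windows of 6 genes are printed as examples of where the E2F-like word lies, and they do not stand for the set. CDC45, MCM10, ORC1 and ORC6 fell (log2 fold changes of -1.53, -1.41, -1.39 and -1.21) without an E2F-like word in any window. Of the 6 printed genes, MCM6, MCM2 and CDC6 were lower in J+V tumors, ORC3 was higher, and ORC2 and RFC1 were not called. Capitals mark the E2F-like words. MCM6 has 4 of them as a pair of overlapping repeats upstream of the start, and MCM2 has 2 that overlap just after the start. CDC6 and ORC3 have 1 each, while ORC2 and RFC1 have 0.
MCM6 (chr2:135876394-135876693, minus strand): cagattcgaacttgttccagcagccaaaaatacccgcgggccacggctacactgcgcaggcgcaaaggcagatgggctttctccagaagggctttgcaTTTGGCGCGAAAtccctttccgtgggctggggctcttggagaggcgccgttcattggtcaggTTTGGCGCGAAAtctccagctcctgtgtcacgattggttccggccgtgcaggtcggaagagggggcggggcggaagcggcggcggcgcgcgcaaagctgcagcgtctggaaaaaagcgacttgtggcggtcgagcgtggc
MCM2 (chr3:127598161-127598460, plus strand): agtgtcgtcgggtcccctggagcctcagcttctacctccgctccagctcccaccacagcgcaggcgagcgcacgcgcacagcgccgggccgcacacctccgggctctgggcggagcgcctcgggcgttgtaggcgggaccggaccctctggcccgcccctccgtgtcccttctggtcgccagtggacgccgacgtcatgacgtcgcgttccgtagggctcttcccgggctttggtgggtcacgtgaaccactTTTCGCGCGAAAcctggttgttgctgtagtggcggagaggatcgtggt
CDC6 (chr17:40287629-40287928, plus strand): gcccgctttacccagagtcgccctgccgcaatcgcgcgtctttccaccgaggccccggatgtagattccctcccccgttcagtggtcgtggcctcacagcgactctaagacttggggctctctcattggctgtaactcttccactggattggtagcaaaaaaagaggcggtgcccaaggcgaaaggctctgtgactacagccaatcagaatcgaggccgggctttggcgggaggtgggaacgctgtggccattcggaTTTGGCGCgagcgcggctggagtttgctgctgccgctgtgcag
ORC3 (chr6:87589885-87590184, plus strand): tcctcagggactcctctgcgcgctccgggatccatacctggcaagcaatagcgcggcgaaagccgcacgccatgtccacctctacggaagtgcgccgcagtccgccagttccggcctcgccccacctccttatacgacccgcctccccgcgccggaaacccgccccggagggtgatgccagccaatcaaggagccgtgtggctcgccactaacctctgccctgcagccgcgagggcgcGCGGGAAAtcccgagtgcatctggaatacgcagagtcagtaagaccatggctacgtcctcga
ORC2 (chr2:200963611-200963910, minus strand): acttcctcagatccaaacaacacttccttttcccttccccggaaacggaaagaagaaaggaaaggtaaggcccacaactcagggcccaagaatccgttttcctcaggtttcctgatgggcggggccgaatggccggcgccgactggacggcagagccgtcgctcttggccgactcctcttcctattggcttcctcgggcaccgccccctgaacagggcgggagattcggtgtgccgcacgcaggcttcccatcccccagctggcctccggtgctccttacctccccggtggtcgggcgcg
RFC1 (chr4:39366313-39366612, minus strand): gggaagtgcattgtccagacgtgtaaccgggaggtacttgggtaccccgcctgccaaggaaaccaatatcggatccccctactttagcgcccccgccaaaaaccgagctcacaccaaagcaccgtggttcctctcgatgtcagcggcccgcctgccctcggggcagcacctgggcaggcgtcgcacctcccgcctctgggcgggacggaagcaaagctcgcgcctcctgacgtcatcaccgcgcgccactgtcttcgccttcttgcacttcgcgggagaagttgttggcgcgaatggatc

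The first comparison asked how the combination changed these genes against vehicle. In J+V tumors the RNA of most of the machinery was lower than in control tumors, from licensing to lagging-strand joining. Of the 47 genes 41 fell and 2 rose, where 20.5% of all 13426 genes fell and 16.6% rose (adjusted p below 0.05, limma with Benjamini-Hochberg adjustment, 37.1% called in all). With tumors scaled to a common sum, 42 of the 47 fell and 0 rose, where 35.2% of all genes fell and 6.06% rose. With the values as deposited, the genes not called were ORC2, ORC5, RFC1 and RPA1. The median log2 fold change was -0.78 over the 47 genes and -0.03 over all genes tested. On the log2(FPKM + 0.5) scale, which understates the change of low genes, estimates ran from -1.96 for CDC6 to 0.59 for ORC4. By more than 2-fold 19 genes were lower, all with p below 0.01 and adjusted p below 0.1 in limma. Of all genes tested, 3.83% passed these thresholds together, in either direction. All 4 J+V tumors lay below all 4 control tumors for 37 of the 47 genes, against 16.4% of all genes tested. For 23 genes all 4 J+V tumors lay below all 12 other tumors, against 6.09% of all genes tested. The genes had been picked as a replication set with results of these tumors known, so these counts describe the set and do not test it.

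**Figure D1:**
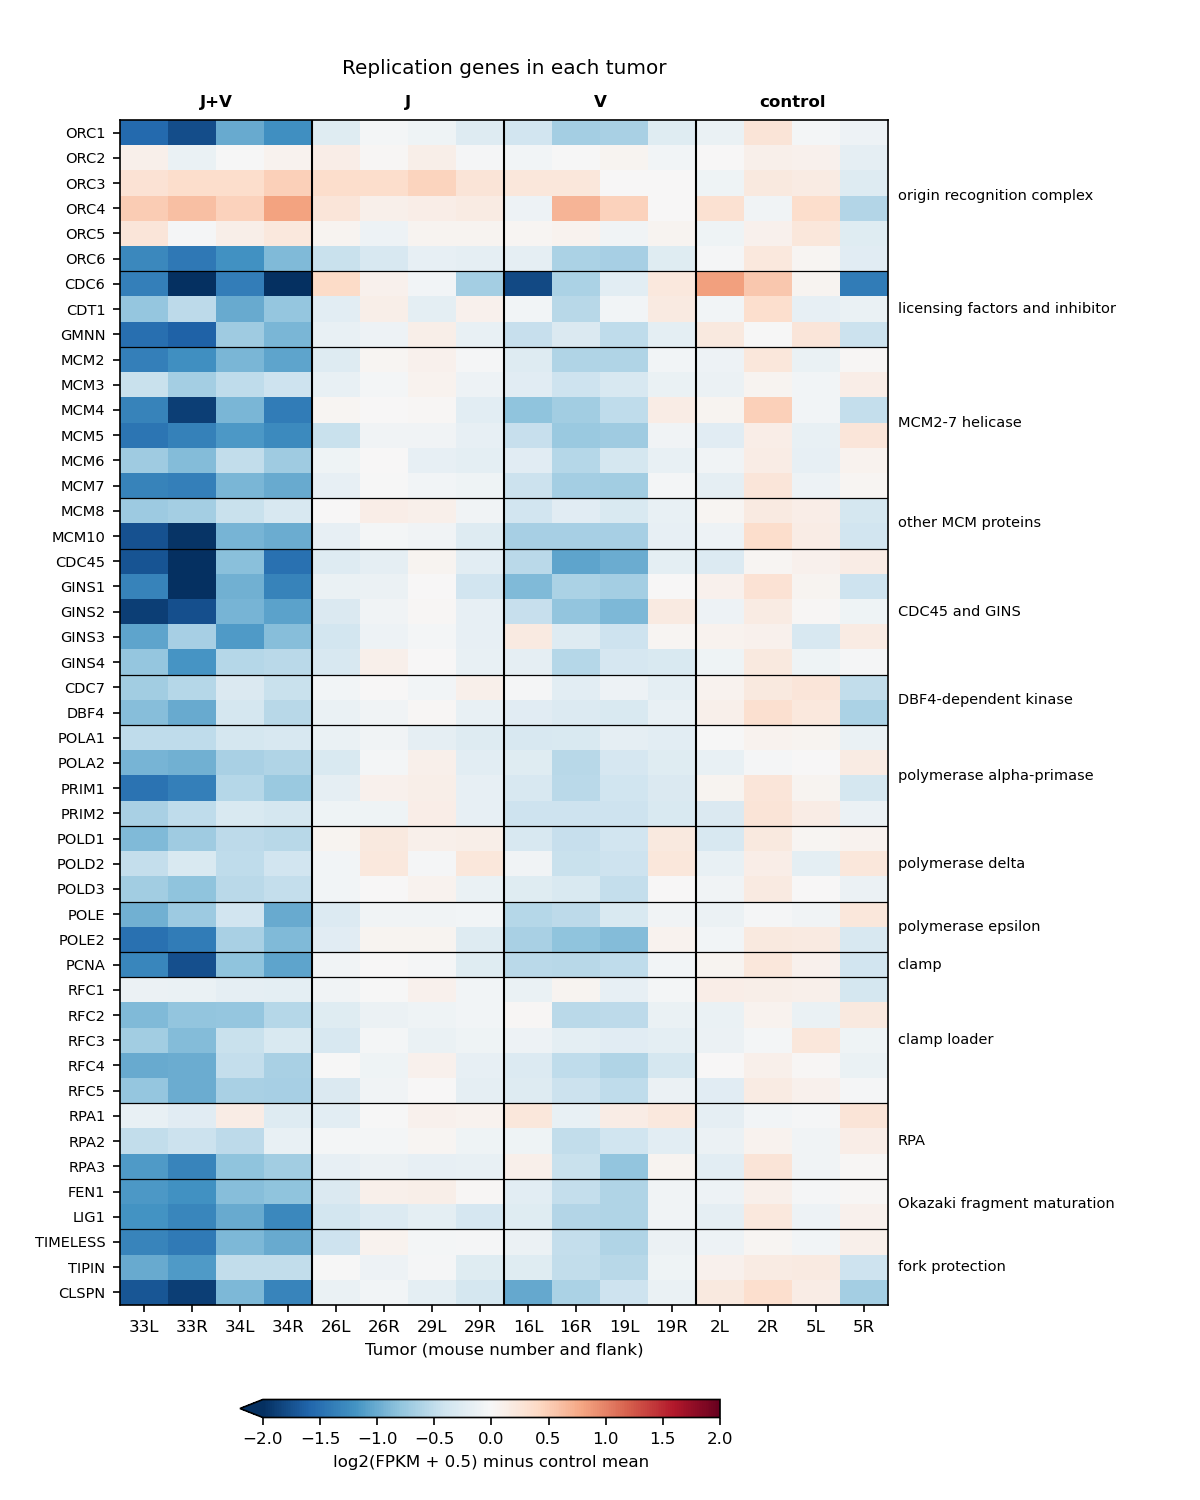
Level of each of the 47 genes (rows, grouped by complex) in each of the 16 tumors (columns) as log2(FPKM + 0.5) minus the mean of the 4 control tumors, where blue is lower, red is higher and values below -2 take the darkest blue. The 4 J+V columns are blue for most genes, whereas ORC2 to ORC5, RFC1 and RPA1 stay pale or red, and V tumor 19R is paler than the other V tumors.

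The origin recognition complex split by subunit. ORC1 (chr1:52838501-52870095 on GRCh37), the subunit that comes and goes with the cell cycle in human cells, stood at 3.06, 2.55, 4.7 and 3.94 FPKM in J+V tumors, 8.3, 9.67, 9.28 and 8.22 in J tumors, 7.49, 6.03, 6.14 and 8.35 in V tumors and 9.01, 12, 9.7 and 9.26 in control tumors. All 4 combination tumors lay below every other tumor, and the log2 fold change against control was -1.39 (SE 0.149, adjusted p = 3.2e-05). ORC6 (chr16:46723555-46732306), the smallest subunit, averaged 9.21 ± 1.59 FPKM in J+V tumors and 21.9 ± 2.81 in control tumors (SD, n = 4 each) and fell by 1.21 on the log2 scale (adjusted p = 3.32e-05). ORC2, a subunit of the stable core, stood at 23.5, 19.8, 21.7 and 23 FPKM in J+V tumors, 24.1, 22.1, 23.6 and 21.4 in J tumors, 21, 21.6, 22.8 and 21.1 in V tumors and 21.9, 23.4, 23.1 and 19.2 in control tumors. These groups overlapped throughout, with a log2 fold change of 0.01 (SE 0.0727, adjusted p = 0.939) for J+V against control. 
The remaining core subunits did not fall. ORC4 (chr2:148687965-148779173), an ATPase-fold subunit of the core, stood at 72.3, 77.4, 70.5 and 89 FPKM in J+V tumors, 60, 54.7, 55.7 and 56.8 in J tumors, 47.5, 81.9, 70.5 and 51.4 in V tumors and 62.9, 48.4, 65.2 and 33.8 in control tumors. The J+V tumors were above all control tumors but overlapped the V tumors, and ORC4 rose by 0.59 on the log2 scale (SE 0.181, adjusted p = 0.0192). This call was lost without control tumor 5R, the lowest of all 16 (0.40, adjusted p = 0.0607). It was also lost without J+V tumor 34R (0.52, adjusted p = 0.053), mouse 33 (0.63, adjusted p = 0.0582), mouse 34 (0.55, adjusted p = 0.0699) or mouse 5 (0.48, adjusted p = 0.0559). ORC3, another core subunit, stood at 21.3, 22.3, 22.4 and 24.3 FPKM in J+V tumors, 22.2, 22.2, 23.9 and 20.9 in J tumors, 20.4, 20.5, 17.5 and 17.4 in V tumors and 16.3, 19.9, 19.5 and 14.4 in control tumors. The J+V tumors again lay above all control tumors, with the J tumors at about the same level, and ORC3 rose by 0.37 (SE 0.0938, adjusted p = 0.00727) against control. With tumors scaled to a common sum, where the median of all genes was -0.22 instead of -0.03, neither rise was called (ORC3 0.15, adjusted p = 0.44, and ORC4 0.38, adjusted p = 0.199). ORC5 averaged 30.7 ± 2.49 FPKM in J+V tumors and 27.9 ± 3.93 in control tumors (SD, n = 4 each) and was not called (adjusted p = 0.218).

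All 3 licensing genes fell. CDC6 (chr17:38444131-38460909), the ATPase that joins ORC to load the helicase, stood at 3.8, 1.01, 3.78 and 1.88 FPKM in J+V tumors, 14, 11.3, 10.2 and 6.48 in J tumors, 2.68, 6.69, 9.07 and 12.4 in V tumors and 19.1, 15.6, 11 and 3.73 in control tumors. It had the largest change of the set and the widest spread: control tumor 5R lay with the J+V tumors and V tumor 16L was also low. The log2 fold change of CDC6 against control was -1.96 (SE 0.485, adjusted p = 0.00596). It was -1.29 (adjusted p = 0.0672) without mouse 2, which carried the pair of highest control tumors. CDT1, the helicase-loading partner of CDC6, stood at 1.3, 1.63, 1.02 and 1.29 FPKM in J+V tumors, 2.16, 2.83, 2.19 and 2.74 in J tumors, 2.45, 1.58, 2.45 and 2.98 in V tumors and 2.45, 3.37, 2.25 and 2.31 in control tumors. These are low values, with the J+V tumors below all control tumors and V tumor 16R among them (log2 fold change -0.77 (SE 0.158, adjusted p = 0.00184)). GMNN (geminin), the inhibitor of CDT1, stood at 10.1, 9.27, 17.8 and 15.4 FPKM in J+V tumors, 26.5, 27.6, 32 and 26.7 in J tumors, 21.2, 24, 20.6 and 25.8 in V tumors and 33.8, 29.5, 35 and 21.7 in control tumors. Its J+V tumors lay below all others, those of mouse 33 lowest, and it fell by 1.19 on the log2 scale (adjusted p = 0.000283).

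Every subunit of the MCM2-7 ring fell, but not evenly. MCM4, a subunit of the helicase core, stood at 20.4, 13.9, 27.6 and 19.7 FPKM in J+V tumors, 54, 52.8, 53.1 and 45.4 in J tumors, 29.9, 32.1, 36.8 and 58.3 in V tumors and 54.4, 73.4, 50.8 and 37.4 in control tumors. Each J+V tumor was below each other tumor, V tumor 19R was at the control level, and the log2 fold change was -1.38 (SE 0.224, adjusted p = 0.000414). MCM3, the partner of MCM5 in the ring, had the smallest change of the 6 and stood at 28.5, 24.2, 27.5 and 29.2 FPKM in J+V tumors, 35.1, 38.2, 41.1 and 36.6 in J tumors, 33.3, 29.4, 31.3 and 35.8 in V tumors and 35.9, 40.6, 37.5 and 42.9 in control tumors. Combination tumors again lay below all others, but by a narrow margin over the lowest V tumor, with a log2 fold change of -0.51 (SE 0.0796, adjusted p = 0.000306). MCM2 (chr3:127317253-127341279), at the gate of the ring with MCM5, stood at 7.39, 8.11, 10.2 and 9.23 FPKM in J+V tumors, 16.5, 20.3, 20.9 and 19.4 in J tumors, 16.4, 12.8, 12.9 and 18.9 in V tumors and 18.3, 23.1, 18 and 20 in control tumors. Its J+V and other tumors were separate, and its log2 fold change was -1.15 (SE 0.127, adjusted p = 3.78e-05). Mean levels in J+V tumors as a share of the control mean were 37.8% for MCM4, 37.9% for MCM5, 43.9% for MCM2, 44.7% for MCM7, 60.9% for MCM6 and 69.7% for MCM3. The log2 fold changes of MCM5, MCM6 and MCM7 were -1.31, -0.69 and -1.15, with adjusted p between 3.2e-05 and 0.0002. MCM7 hosts microRNA genes in an intron and shares exon sequence with AP4M1 on the other strand, and whether the counting used strand was not stated in the sources used here.
Both other MCM proteins fell. MCM10, which helps start the fork, stood at 3.12, 2.61, 5.87 and 5.56 FPKM in J+V tumors, 10.3, 11.3, 11 and 9.68 in J tumors, 7.17, 7.17, 7.17 and 10.3 in V tumors and 10.8, 14.9, 12.9 and 8.75 in control tumors. Its J+V tumors lay below all others, and the tumors of mouse 33 were lower than those of mouse 34 (log2 fold change against control -1.41 (SE 0.213, adjusted p = 0.000262)). MCM8, a helicase of recombination and not of the licensed ring, stood at 22.9, 23.8, 28 and 30.8 FPKM in J+V tumors, 38.4, 42, 41.2 and 36.4 in J tumors, 29.3, 32.8, 30.9 and 34.4 in V tumors and 39.3, 43.7, 42.2 and 29.9 in control tumors. The highest J+V tumor was above control tumor 5R and V tumor 16L, and the fall was smaller at -0.54 (SE 0.113, adjusted p = 0.00212).

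CDC45 and the 4 GINS subunits, which turn the loaded ring into the moving helicase, all fell. CDC45 (chr22:19466980-19508135) stood at 3.75, 2.83, 7.4 and 4.52 FPKM in J+V tumors, 11.3, 12, 14.2 and 11.7 in J tumors, 9.2, 6.26, 6.59 and 11.8 in V tumors and 11.2, 13.9, 14.4 and 15.2 in control tumors. All J+V tumors were below all J and control tumors, while tumor 34L overlapped V tumors 16R and 19L, and the log2 fold change against control was -1.53 (SE 0.221, adjusted p = 0.000188). GINS4, a subunit of the same complex with the smallest change among the 5, stood at 2.56, 1.8, 3.02 and 3.11 FPKM in J+V tumors, 3.71, 5.1, 4.77 and 4.23 in J tumors, 4.12, 3.04, 3.64 and 3.76 in V tumors and 4.45, 5.48, 4.45 and 4.63 in control tumors. Its J+V tumors were below the control tumors and overlapped V tumor 16R (log2 fold change -0.77 (SE 0.137, adjusted p = 0.000776)). The other log2 fold changes were -1.43 for GINS1, -1.41 for GINS2 and -0.93 for GINS3, with adjusted p between 0.000238 and 0.00034.

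Both genes of the DBF4-dependent kinase, which phosphorylates the loaded ring, fell by less than 2-fold. DBF4, its regulatory subunit, stood at 12.2, 10.8, 17.3 and 15.1 FPKM in J+V tumors, 20.3, 21.2, 22.6 and 20.1 in J tumors, 19, 18.3, 17.9 and 20.1 in V tumors and 24, 28, 25.9 and 14.2 in control tumors. Control tumor 5R lay among the J+V tumors, so the groups overlapped, with a log2 fold change of -0.69 (SE 0.17, adjusted p = 0.00575). CDC7, the catalytic subunit, stood at 6.95, 7.68, 9.42 and 8.41 FPKM in J+V tumors, 11.1, 11.7, 11.1 and 12.5 in J tumors, 11.4, 10, 10.8 and 10.1 in V tumors and 12.2, 13.3, 13.8 and 8.08 in control tumors. The same control tumor was again within the J+V values (log2 fold change -0.50 (SE 0.13, adjusted p = 0.00808)). Without mouse 33 neither call held (DBF4 -0.45, adjusted p = 0.0908, and CDC7 -0.37, adjusted p = 0.0958), and neither held without control mouse 2 (-0.48, adjusted p = 0.0578, and -0.37, adjusted p = 0.0635).

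**Figure D2:**
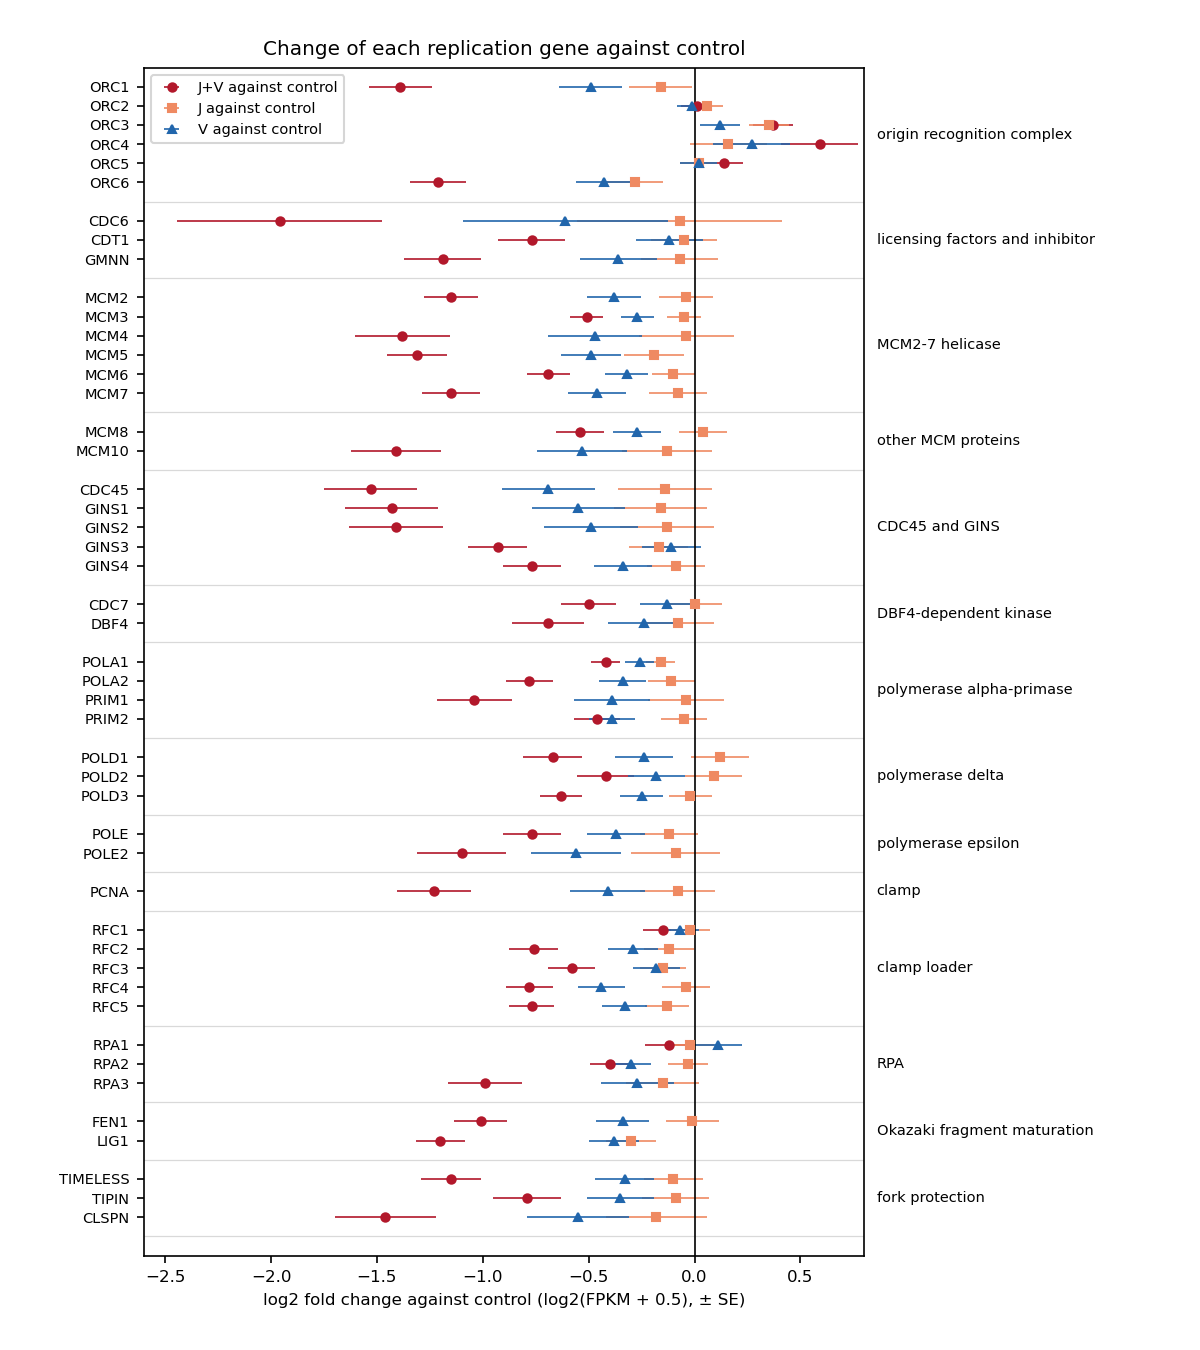
Log2 fold change of each of the 47 genes against control (horizontal axis, log2(FPKM + 0.5), bars are SE) for J+V (red circles), J (orange squares) and V (blue triangles), grouped by complex. The J+V points run from -1.96 to 0.59, J points lie near 0 with a median of -0.08, and V points lie between them for most genes with a median of -0.34.

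In polymerase alpha-primase the primase subunit PRIM1 changed most. PRIM1 (chr12:57124222-57146158), which makes the RNA primer, stood at 11, 11.9, 21.1 and 18.6 FPKM in J+V tumors, 27.7, 33.6, 34.1 and 28 in J tumors, 25.2, 21.5, 23.9 and 25.6 in V tumors and 32.7, 37.2, 32.8 and 24.7 in control tumors. J+V tumors lay below all others, with mouse 33 lowest and mouse 34 near the lowest V tumor (log2 fold change -1.04 (SE 0.178, adjusted p = 0.000588)). PRIM1 shares exon sequence with NACA on the same strand. NACA averaged 1340 ± 80.9 FPKM in J+V tumors and 1490 ± 25.8 in control tumors (SD, n = 4 each). How reads of the shared sequence were assigned was not stated in the sources used here. PRIM2, the large primase subunit, stood at 10.3, 11.5, 13.2 and 12.9 FPKM in J+V tumors, 15.5, 15.5, 18.1 and 14.7 in J tumors, 12.2, 12.3, 12.3 and 13.3 in V tumors and 13.4, 19.8, 18.4 and 15.2 in control tumors. The V tumors overlapped the J+V tumors, and the log2 fold change of J+V against control was -0.46 (SE 0.109, adjusted p = 0.00477). It was -0.33 (adjusted p = 0.0655) without mouse 33. PRIM2 has a near-identical pseudogene copy, so how its reads were assigned is uncertain. POLA1, the catalytic subunit of polymerase alpha, had the smallest change of this complex at 17.1, 17, 19 and 19.4 FPKM in J+V tumors, 22.2, 23.1, 21.6 and 20.3 in J tumors, 19.5, 19.7, 21.4 and 21 in V tumors and 24.3, 25.7, 25.5 and 22.3 in control tumors. Its spread was narrow and the J+V tumors lay below all others (log2 fold change -0.42 (SE 0.0675, adjusted p = 0.00038)). POLA2, the accessory subunit, had a log2 fold change of -0.78 (SE 0.112, adjusted p = 0.000178).
Of polymerase delta, which extends the lagging strand, POLD1, POLD2 and POLD3 fell, and POLD4 is given with the other replication genes. POLD1, the catalytic subunit, stood at 1.5, 1.75, 2.07 and 2.01 FPKM in J+V tumors, 3.34, 3.72, 3.45 and 3.5 in J tumors, 2.47, 2.18, 2.32 and 3.71 in V tumors and 2.47, 3.71, 3.31 and 3.39 in control tumors. J+V tumors lay below all others by a small margin over V tumor 16R (log2 fold change -0.67 (SE 0.138, adjusted p = 0.00198)). POLD2, an accessory subunit, stood at 13.1, 14.8, 12.8 and 14 FPKM in J+V tumors, 17.7, 21.4, 18.1 and 21.8 in J tumors, 17.5, 13.5, 13.7 and 21.6 in V tumors and 16.6, 20.2, 16 and 21.7 in control tumors. It overlapped V tumors 16R and 19L, and the log2 fold change was -0.42 (SE 0.133, adjusted p = 0.0212), which was not called without control tumor 5R (-0.35, adjusted p = 0.0642), without mouse 5 (-0.41, adjusted p = 0.0639), without mouse 33 (-0.45, adjusted p = 0.0625) or without mouse 34 (-0.40, adjusted p = 0.0785). POLD3, the subunit that binds PCNA, had a log2 fold change of -0.63 (SE 0.1, adjusted p = 0.000352).
For polymerase epsilon, the leading-strand enzyme, POLE2, its second subunit, stood at 2.73, 2.94, 5.28 and 4.4 FPKM in J+V tumors, 7.25, 8.86, 8.93 and 7.03 in J tumors, 5.26, 4.68, 4.44 and 9.03 in V tumors and 8.25, 9.9, 9.71 and 6.71 in control tumors. J+V tumors lay below all J and control tumors and overlapped V tumors (log2 fold change -1.10 (SE 0.211, adjusted p = 0.00119)). POLE, the catalytic subunit, stood at 2.23, 2.72, 3.57 and 2.16 FPKM in J+V tumors, 3.92, 4.55, 4.55 and 4.65 in J tumors, 3.08, 3.21, 3.79 and 4.58 in V tumors and 4.39, 4.71, 4.57 and 5.71 in control tumors. The groups were arranged in the same way, with a log2 fold change of -0.77 (SE 0.137, adjusted p = 0.000776).

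PCNA (chr20:5095599-5107272), the sliding clamp, had the highest control level of the 47 genes and stood at 53.9, 39.2, 76.5 and 64.7 FPKM in J+V tumors, 128, 135, 132 and 114 in J tumors, 92.3, 91.7, 94.7 and 129 in V tumors and 140, 158, 143 and 103 in control tumors. The J+V tumors lay below all others, 3 V tumors stood between 91.7 and 94.7 FPKM, and V tumor 19R was at the level of J tumors. The log2 fold change of PCNA against control was -1.23 (SE 0.176, adjusted p = 0.000177). In the clamp loader, which opens PCNA and places it on DNA, RFC2 to RFC5 fell and RFC1 was not called. RFC4 stood at 16.2, 16.4, 23.7 and 20.8 FPKM in J+V tumors, 33, 31.2, 35.2 and 29.3 in J tumors, 27.1, 23, 21.5 and 25.7 in V tumors and 33.3, 35.6, 33.5 and 30 in control tumors. J+V tumor 34L was above V tumors 16R and 19L, and all J+V tumors were below all control tumors (log2 fold change -0.78 (SE 0.112, adjusted p = 0.000189)). RFC4 shares exon sequence with EIF4A2 on the other strand, whose mean was 411 ± 61.1 FPKM in J+V tumors and 259 ± 28.3 in control tumors (SD, n = 4 each), opposite in direction to RFC4. RFC1, the large subunit, stood at 32.5, 32.1, 31.3 and 31 FPKM in J+V tumors, 33.6, 35.1, 37.5 and 33.9 in J tumors, 32.1, 36.9, 31.5 and 34.6 in V tumors and 38.7, 38.4, 38.2 and 27.6 in control tumors. The J+V tumors overlapped the V and control tumors and lay just below the J tumors (log2 fold change -0.15 (SE 0.0918, adjusted p = 0.199)), and the lowest of the 16 tumors was control tumor 5R. RFC1 was called lower under 3 of the alternatives, among them the common sum and the fit without control tumor 5R. Log2 fold changes were -0.76 for RFC2, -0.58 for RFC3 and -0.77 for RFC5, with adjusted p between 0.000125 and 0.00117.

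Of RPA, the trimer that coats single-stranded DNA, RPA2 and RPA3 fell and RPA1 was not called. RPA3, the small subunit, stood at 15, 13.1, 19 and 20.4 FPKM in J+V tumors, 29.7, 30.8, 29.7 and 30.1 in J tumors, 36, 24.4, 19.1 and 34.8 in V tumors and 28.9, 39.9, 32 and 33.9 in control tumors. J+V tumors lay below all control and J tumors, and V tumor 19L was low as well (log2 fold change -0.99 (SE 0.173, adjusted p = 0.000681)). RPA1, the large subunit, stood at 11.2, 10.6, 13.8 and 10.4 FPKM in J+V tumors, 10.7, 12.4, 13.3 and 13.1 in J tumors, 14.6, 11.2, 13.9 and 14.5 in V tumors and 11, 12, 12.2 and 15 in control tumors. The groups overlapped, and RPA1 was not called at -0.12 (SE 0.113, adjusted p = 0.415). RPA2, the middle subunit, averaged 29.9 ± 3.71 FPKM in J+V tumors and 39.5 ± 3.16 in control tumors (SD, n = 4 each) and had a log2 fold change of -0.40 (SE 0.0933, adjusted p = 0.00425).

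The 2 genes of Okazaki fragment maturation fell to a similar degree. LIG1 (chr19:48618702-48673860), the ligase that seals the fragments, stood at 3.45, 3.15, 4.01 and 3.2 FPKM in J+V tumors, 6.49, 7.01, 7.37 and 6.67 in J tumors, 7.13, 5.54, 5.48 and 8.09 in V tumors and 7.51, 9.95, 7.9 and 9.06 in control tumors. The J+V tumors were tightly grouped below all others (log2 fold change -1.20 (SE 0.117, adjusted p = 2.31e-05)), with the smallest adjusted p of the 47 genes. FEN1 (chr11:61560383-61564710), the nuclease that trims the flaps, stood at 14.5, 13.8, 17.9 and 18.5 FPKM in J+V tumors, 26.6, 35.1, 35.5 and 33.4 in J tumors, 28.3, 23.5, 21.4 and 31.3 in V tumors and 30.4, 35.2, 32.2 and 33.4 in control tumors. Its J+V tumors lay below all others too (log2 fold change -1.01 (SE 0.124, adjusted p = 6.4e-05)). FEN1 shares exon sequence with FADS2 on the same strand, whose mean was 0.547 ± 0.089 FPKM in J+V tumors and 1.51 ± 0.129 in control tumors (SD, n = 4 each).
The fork protection genes fell as well. CLSPN (claspin), which links the fork to the checkpoint kinase CHK1, stood at 3.1, 2.71, 5.85 and 4.22 FPKM in J+V tumors, 10.3, 10.9, 9.82 and 8.79 in J tumors, 5.33, 7.17, 8.42 and 10.3 in V tumors and 13.1, 14.5, 12.6 and 6.86 in control tumors. J+V tumors were below all control and J tumors, and J+V tumor 34L was above V tumor 16L (log2 fold change -1.46 (SE 0.24, adjusted p = 0.00045)). TIMELESS, a scaffold of the fork, stood at 3.31, 3.08, 4.62 and 4.24 FPKM in J+V tumors, 6.59, 9.52, 8.71 and 8.83 in J tumors, 8.26, 6.29, 5.73 and 8.29 in V tumors and 8.36, 9.31, 8.65 and 9.73 in control tumors. The J+V tumors lay below all others (log2 fold change -1.15 (SE 0.14, adjusted p = 5.74e-05)). TIPIN, its binding partner, stood at 17.4, 15.9, 24.9 and 24.9 FPKM in J+V tumors, 35.4, 32.9, 34.9 and 29.8 in J tumors, 29.8, 25, 23.9 and 33.3 in V tumors and 37.5, 39.7, 40 and 26.4 in control tumors. Mouse 33 was clearly lowest and mouse 34 was just under control tumor 5R and above V tumor 19L (log2 fold change -0.79 (SE 0.16, adjusted p = 0.00178)).

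**Figure D3:**
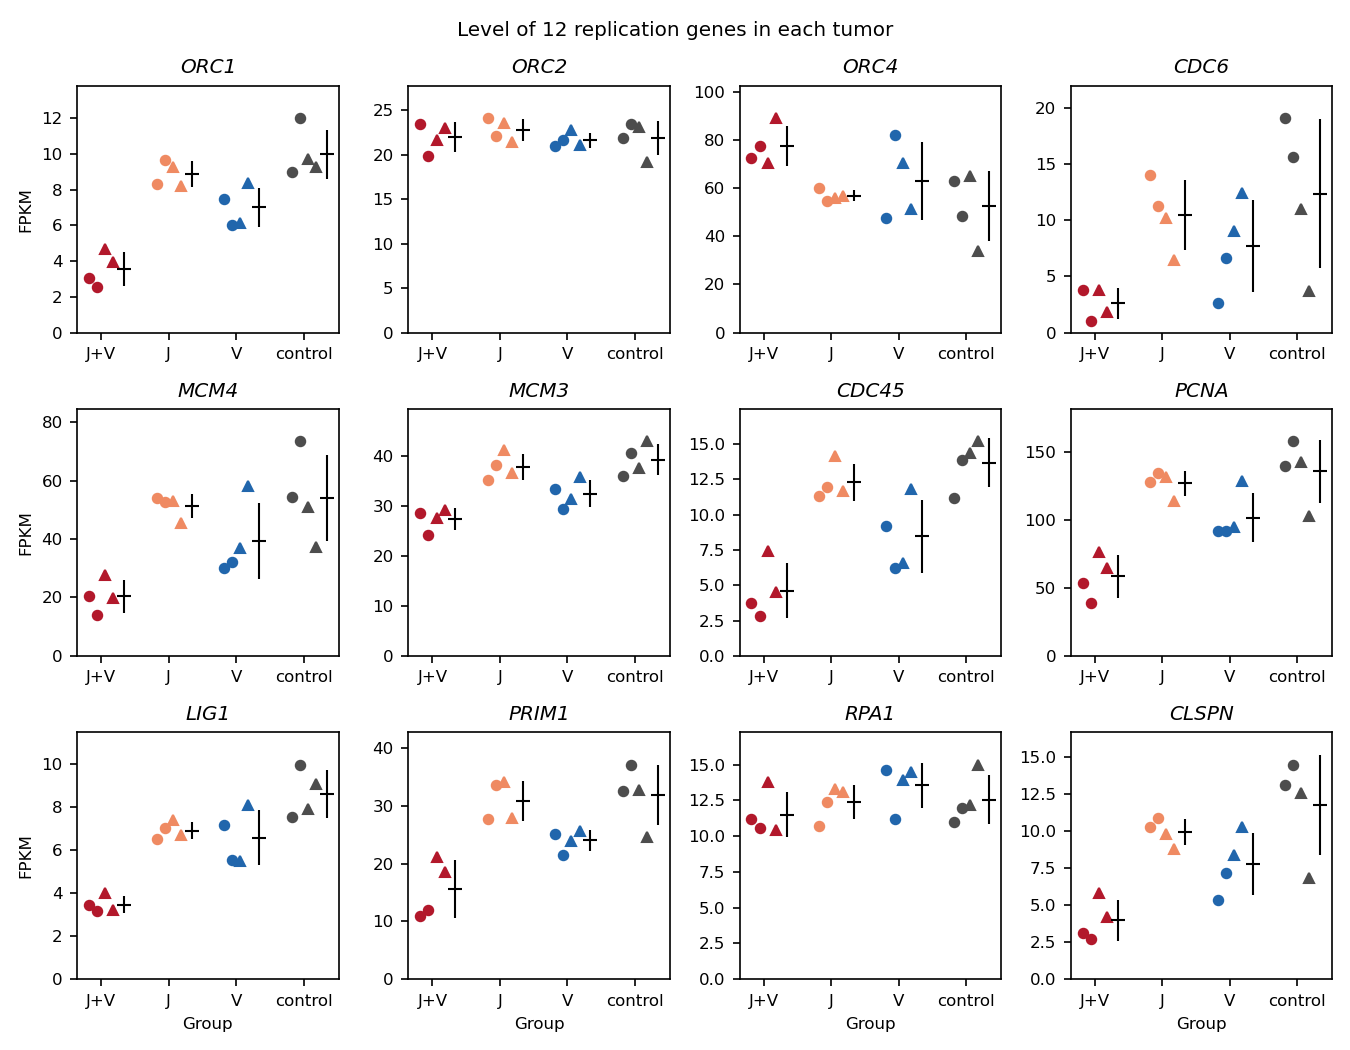
FPKM of 12 of the genes (1 panel each, vertical axis from 0) in the tumors of each group, where circles and triangles are the tumors of the lower- and higher-numbered mouse of a group and the black bar is the mean with SD (n = 4). The J+V points of ORC1, LIG1, PRIM1 and PCNA lie below all others, those of ORC2 and RPA1 overlap the other groups, and ORC4 is highest in J+V tumors on average.

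Because subunits of 1 complex changed unequally, ratios of partner genes were compared within each tumor, as the log2(FPKM + 0.5) of 1 gene minus that of the other. The log2 ratio of ORC1 to ORC2 was -2.75, -2.73, -2.10 and -2.40 in J+V tumors and -1.24, -0.93, -1.21 and -1.01 in control tumors. The difference of -1.40 left no overlap between the groups. The log2 ratio of MCM2, of the ring, to MCM8, outside it, was -1.57, -1.50, -1.41 and -1.69 in J+V tumors and -1.08, -0.90, -1.20 and -0.57 in control tumors, a difference of -0.61 without overlap. PRIM1 over PRIM2 was 0.09, 0.05, 0.66 and 0.52 in J+V tumors and 1.25, 0.89, 0.82 and 0.68 in control tumors. Here mouse 33 set most of the difference of -0.58, while mouse 34 lay just under the lowest control tumor. For each of the ratios so far, the J+V tumors lay below all J and V tumors too. RFC4 over RFC1 was -0.98, -0.95, -0.39 and -0.56 in J+V tumors and -0.21, -0.11, -0.19 and 0.12 in control tumors (difference -0.62, no overlap between these groups). The V tumors, at -0.24, -0.67, -0.54 and -0.42, overlapped the J+V tumors. TIPIN over TIMELESS went the other way, at 2.23, 2.19, 2.31 and 2.42 in J+V tumors and 2.10, 2.03, 2.15 and 1.40 in control tumors (difference 0.37, no overlap between these groups). J tumor 26L, at 2.34, lay among the J+V tumors for this ratio. These 5 ratios had the smallest p that an exact two-sided permutation test of 4 against 4 tumors can give, 0.0286, and an adjusted p of 0.0457 over the 8 ratios. With a pseudocount of 1 in place of 0.5 none of the 5 passed, with an adjusted p of 0.0571 for 4 of them and 0.0914 for TIPIN over TIMELESS. An adjusted p below 0.05 needs at least 5 of the 8 ratios at the smallest p, so these calls stand or fall together. The pairs were formed with unequal changes in these same tumors known, so the p-values describe the ratios and do not test them. That test permutes single tumors, and with whole mice as units no p below 0.05 is possible.
The other 3 ratios did not pass. CDT1 over its inhibitor GMNN differed by 0.42 (exact permutation p = 0.343), and was higher in both tumors of mouse 33 than in any control tumor but not in mouse 34. DBF4 over CDC7 differed by -0.19 (exact permutation p = 0.0857) and POLE2 over POLE by -0.33 (exact permutation p = 0.257). With any 1 tumor left out none of the 5 ratios that had passed did so (adjusted p between 0.0571 and 0.137), while each difference kept its direction, from -1.53 to -1.31 for ORC1 over ORC2 and from 0.19 to 0.44 for TIPIN over TIMELESS.

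**Figure D4:**
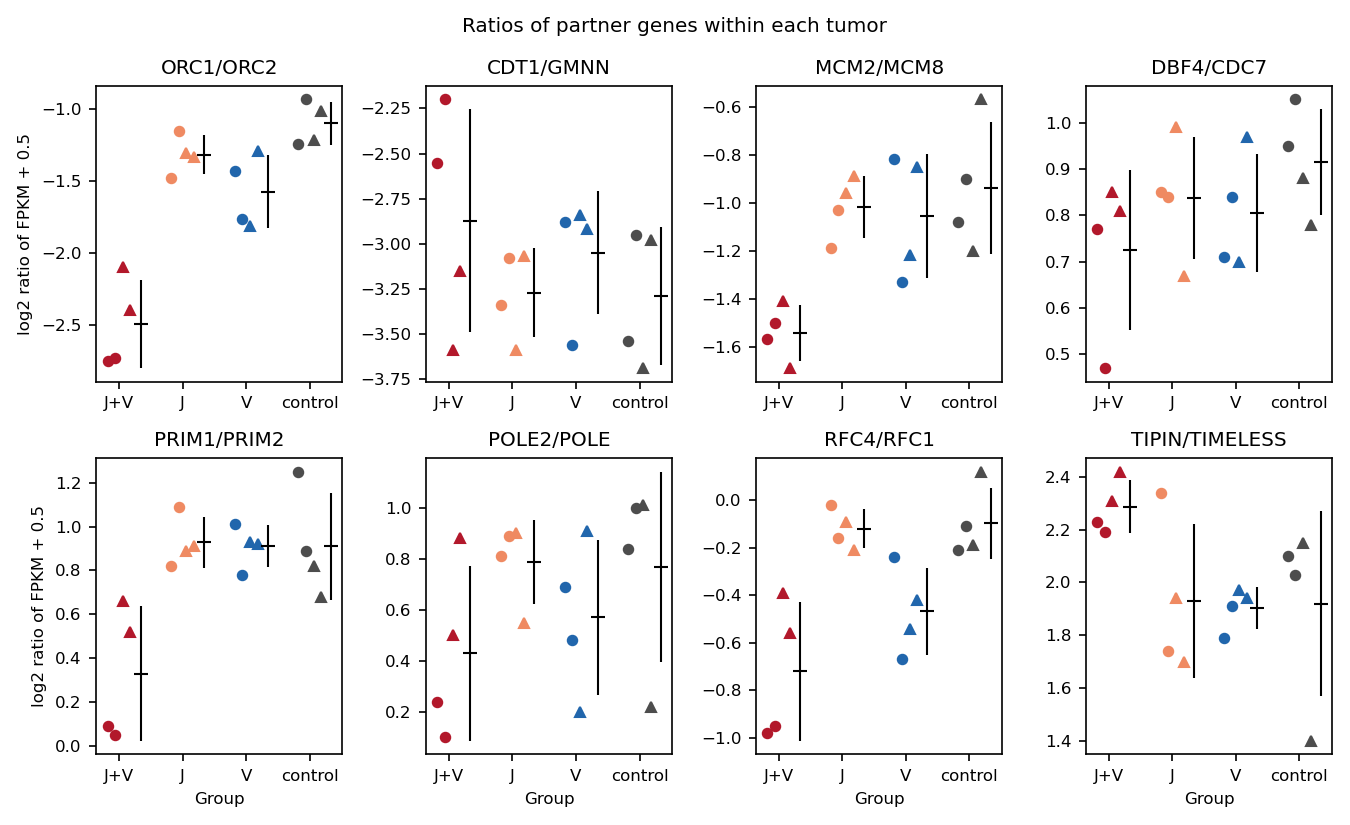
Log2 ratio of FPKM + 0.5 for 8 pairs of partner genes within each tumor (vertical axis, log2 scale) by group, where circles and triangles are the tumors of the lower- and higher-numbered mouse of a group and the black bar is the mean with SD (n = 4). The J+V points of ORC1/ORC2, MCM2/MCM8, PRIM1/PRIM2 and RFC4/RFC1 lie below all control points, and those of TIPIN/TIMELESS lie above them.

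The single drugs were compared with vehicle in the same fit. JQ1 alone left these genes near the control level. In J against control limma called 0 of the 47 genes (0.0% of all genes), 3 genes had an unadjusted p below 0.05 (8.49% of all genes), and the median log2 fold change was -0.08, against 0.04 over all genes. The 3 were ORC3 (0.35, adjusted p = 0.279), LIG1 (-0.30) and POLA1 (-0.16). For LIG1 the 4 J tumors, at 6.49, 7.01, 7.37 and 6.67 FPKM, lay below all 4 control tumors, at 7.51, 9.95, 7.9 and 9.06 FPKM. No other of the 47 genes had such a separation in J tumors (1.66% of all genes had it).
Vemurafenib alone gave lower estimates for 43 of the 47 genes, but in V against control limma called 0 of them (0.0% of all genes). An unadjusted p below 0.05 was reached by 30 genes, all lower, against 8.03% of all genes that were lower at this level, and the median log2 fold change was -0.34, against 0.01 over all genes. Estimates ran from -0.69 for CDC45 to 0.27 for ORC4. V tumor 19R stood apart. It was the highest V tumor for 30 of the 47 genes (31.2% of all genes), and its median over the 47 genes was -0.08 relative to the control mean on the log2 scale, whereas those of tumors 16L, 16R and 19L were -0.25, -0.49 and -0.42. Without 19R, MCM5 and MCM7 were called in V against control (1.32% of all genes were), and without control tumor 5R, MCM8, POLA1 and RFC4 were (3.16% of all genes). All of these were lower in V. The median over the 47 genes was -0.40 without 19R.

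The combination was then set against each single drug. In J+V against J, which asks what Vemurafenib added to JQ1, 41 of the 47 genes fell (18.4% of all genes fell, 27.0% were called) and 0 rose, with a median of -0.72 against -0.05 over all genes. The genes not called were ORC2 to ORC5, RFC1 and RPA1. The balance over all genes depended on the scaling, with 2464 lower and 1164 higher as deposited, 2659 and 486 with a common sum, 1842 and 1788 with upper quartile scaling and 1859 and 1967 with quantile normalisation. Of the 47 genes 40 fell under each of these 3 scalings, and ORC4 rose under the last 2 (adjusted p = 0.049 and 0.0418). The largest differences were -1.90 for CDC6, -1.39 for CDC45 and -1.35 for MCM4. In J+V against V, which asks what JQ1 added to Vemurafenib, 26 of the 47 fell (8.31% of all genes fell, 13.3% were called) and 0 rose, with a median of -0.45 against -0.03 over all genes. They were ORC1, ORC6, CDT1, GMNN, all of MCM2-7 but MCM3, MCM10, CDC45, GINS1 to GINS3, POLA2, PRIM1, POLD3, PCNA, RFC2, RFC3, RFC5, RPA3, FEN1, LIG1, TIMELESS and CLSPN. LIG1 differed by -0.82 (SE 0.117, adjusted p = 0.00114) and ORC1 by -0.90 (SE 0.149, adjusted p = 0.00227).
The count in J+V against V depended on which tumors were included. The share of all genes called changed along with it, and is given in parentheses. Of the 47 genes 11 were called without V tumor 19R (5.21%), 12 with control tumor 5L left out (5.09%), 16 without J+V tumor 33R (7.67%), 17 without J+V tumor 33L (8.12%), 8 without mouse 33 (2.42%), 10 without mouse 19 (3.15%), and 6 with the tumors of a mouse averaged (1.74%). With a common sum per tumor 36 were called (21.6%), all lower, where 2669 of all genes fell and 235 rose. ORC6, MCM2, MCM5, GINS3, LIG1 and TIMELESS were called in this comparison under every alternative that tests at an adjusted p below 0.05. J+V against J and J+V against V share the J+V tumors, and each is given by its own values.

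Whether J+V went beyond the sum of J and V on the log2 scale was tested as an interaction. The estimate was below 0 for 45 of the 47 genes, against 61.5% of all genes tested, and its median was -0.37, against -0.07 over all genes. With limma 0 of the 47 were called (0 of 13426 genes, 0.0%), and 22 had an unadjusted p below 0.05, all lower, against 9.50% of all genes that were lower at this level. The smallest adjusted p was that of MCM2, -0.72 (SE 0.18, adjusted p = 0.138). CDC6 had the largest estimate at -1.29 (SE 0.686, adjusted p = 0.467). For POLA1 and PRIM2 the estimates were -0.00 and -0.02. Without mouse 34 there were 12 genes called (2.70% of all genes), among them GMNN (-1.13, adjusted p = 0.00967), ORC1 (-1.02, adjusted p = 0.00962) and PRIM1 (-1.0, adjusted p = 0.0104), and without mouse 33 there were 0 (0.0225% of all genes). A departure from the sum was thus not shown with all tumors included.
J against V gave 0 called genes of the 47 (0.283% of all genes). Estimates had a median of 0.25 against 0.04 over all genes, with 16 genes higher in J than in V at an unadjusted p below 0.05 (7.92% of all genes) and 0 lower. Mean levels ran in the order J+V, V, J and control from low to high for 38 of the 47 genes, against 16.5% of all genes tested, but none of the 47 was called between the neighbours J and V, or between J and control.

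The mice of the J+V group differed in these genes. For 32 of the 47 genes both tumors of mouse 33 lay below both tumors of mouse 34, against 21.2% of all genes tested, and for 2 genes they lay above, against 19.5%. The median difference from the control mean was -0.94 in mouse 33 and -0.66 in mouse 34 on the log2 scale. Over all genes these medians were -0.01 and -0.03. The set means of CDC45 with GINS were -1.35 and -1.56 in tumors 33L and 33R, -0.89 and -1.06 in tumors 34L and 34R, and -0.06, 0.15, -0.05 and -0.04 in control tumors. The fork protection genes averaged -1.35 and -1.48 in 33L and 33R, -0.76 and -0.94 in 34L and 34R, and 0.06, 0.18, 0.09 and -0.33 in control tumors. Each of the 4 J+V tumors was thus below each control tumor for both sets. The correlation of tumors of the same mouse, within groups, had a median of 0.0596 over the 47 genes and -0.0592 over all genes, and the fit used 1 value of -0.0674 for all genes, so the p-values of genes with alike tumors within a mouse are too small. Among control tumors, 5R was the lowest for 22 of the 47 genes (28.4% of all genes) and 2R the highest for 28 (16.2% of all genes).

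**Figure D5:**
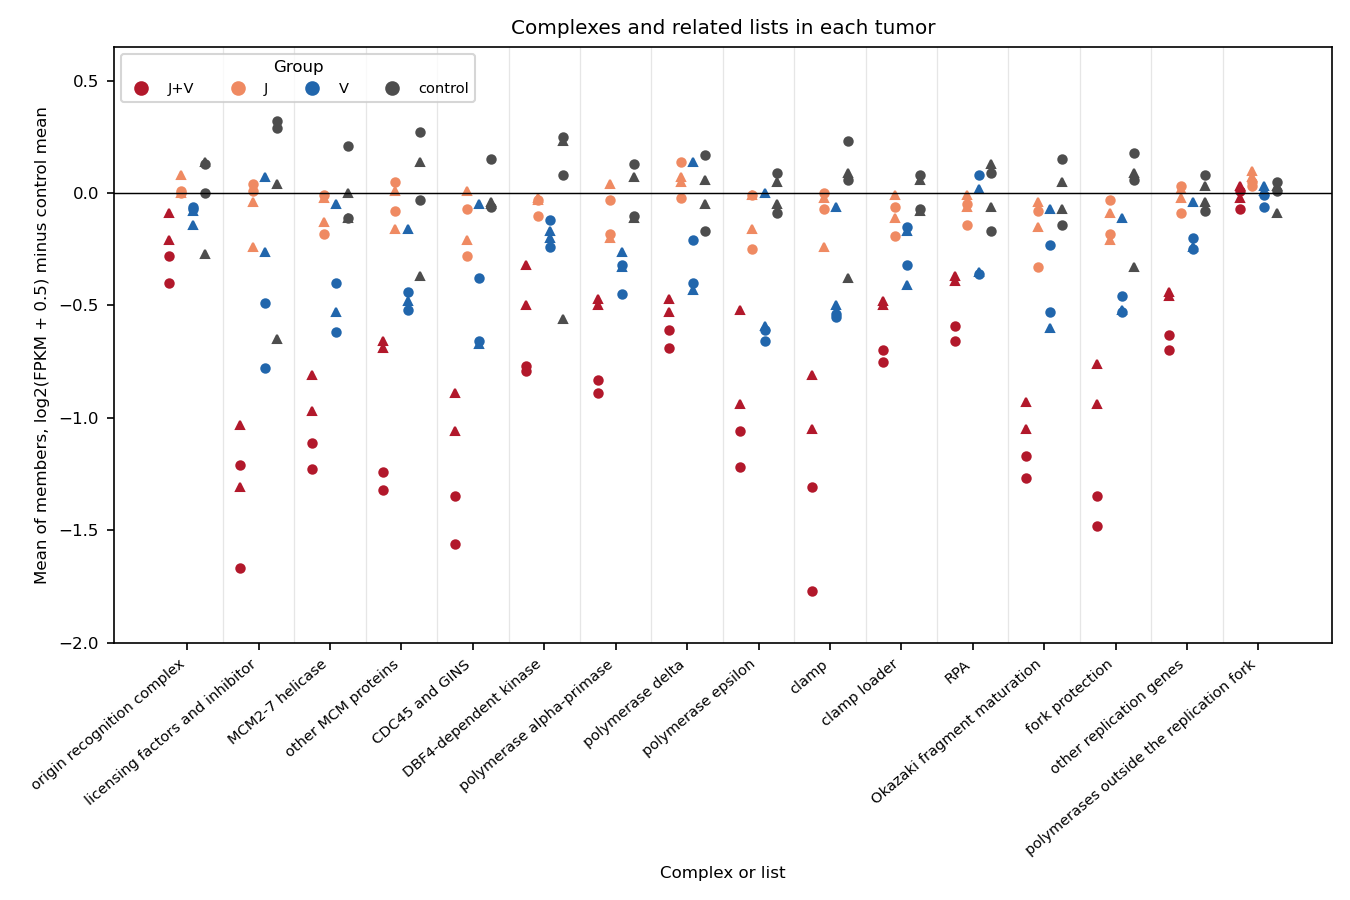
Mean of log2(FPKM + 0.5) minus the control mean (vertical axis) over the members of each complex and of 2 related lists (horizontal axis) in each tumor, coloured by group, where circles and triangles are the tumors of the lower- and higher-numbered mouse of a group. J+V tumors are lowest for most complexes, mouse 33 lies under mouse 34 for most, and the polymerases outside the fork lie within 0.10 of 0 in all 16 tumors.

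Other genes of DNA replication were described from a list of 30, of which 29 were measured above the filter. In J+V against control 19 of these 29 fell and 0 rose, beside 20.5% and 16.6% of all genes, with a median of -0.51, against -0.03 over all genes. UHRF1, which guides maintenance methylation behind the fork, averaged 7.74 ± 2.83 FPKM in J+V tumors and 22.3 ± 1.48 in control tumors (log2 fold change -1.53, adjusted p = 8.48e-05). CHAF1A, of the chromatin assembly factor at the fork, averaged 4.77 ± 0.963 FPKM in J+V tumors and 12.5 ± 1.25 in control tumors (-1.31, adjusted p = 2.62e-05). TOP2A, the topoisomerase of dividing cells, averaged 54.4 ± 19.3 FPKM in J+V tumors and 125 ± 32.5 in control tumors (-1.22, adjusted p = 0.000874; SD, n = 4 each). POLD4, the small subunit of polymerase delta, was not called (log2 fold change 0.09, adjusted p = 0.671). POLE3 and POLE4, small subunits of polymerase epsilon, fell (-0.57, adjusted p = 0.000664, and -0.49, adjusted p = 0.0415).
Of 14 genes for polymerases that work outside the replication fork, in repair, translesion synthesis or mitochondria, 12 were measured above the filter. Of these 3 fell and 2 rose in J+V against control, shares close to the 20.5% and 16.6% of all genes, and the median was 0.05. POLQ, which joins broken ends, averaged 4.69 ± 1.46 FPKM in J+V tumors and 8.52 ± 1.96 in control tumors (-0.81, adjusted p = 0.00405). POLK, a translesion polymerase, averaged 29.0 ± 2.22 FPKM in J+V tumors and 19.4 ± 5.58 in control tumors (0.62, adjusted p = 0.0112). MAD2L2, the small subunit of polymerase zeta, averaged 7.52 ± 0.615 FPKM in J+V tumors and 10.5 ± 0.749 in control tumors (-0.45, adjusted p = 0.000761; SD, n = 4 each).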

How the data were processed

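RNA of 16 A375 tumors (4 groups of 4 tumors, 2 mice each) had been sequenced after removal of ribosomal RNA. The deposited values are FPKM per gene symbol. Per the labels the authors used bcl2fastq, TopHat and Cufflinks, with reads mapped to hg19. Their versions, the annotation, the strand setting and the handling of mouse reads were not stated in the sources used here. Read counts, which the study tested, are not used here.

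The log2 of FPKM + 0.5 was analysed for the 13426 genes that reached 1 FPKM in 4 or more tumors. They were fitted with limma 3.58.1 in R 4.3.3, with a term per group, the mouse as a block (correlation -0.0674), a mean-variance trend and 12 residual degrees of freedom. Benjamini-Hochberg adjustment ran over all genes kept, and genes with an adjusted p below 0.05 were called. The fit was also run on simulated data in which all tumors varied independently, so that run did not check the mouse block. Ratios within tumors were compared by exact two-sided permutation tests. The members, the lists and the pairs for ratios were chosen with earlier results of these data known. Every member is named, and values per tumor are given for the largest and smallest change of each complex, for PRIM1, LIG1, FEN1, MCM2, and for members of a ratio. ORC3 and ORC4, the partner genes NACA, FADS2 and EIF4A2, POLD4, POLE3 and POLE4, and single marker genes were added after their values were seen. From the other lists the 3 largest called changes are given.

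Alternatives changed the pseudocount (0.1 or 1), the filter (none, or an FPKM averaging 5 or more), the scaling (a common sum with or without small noncoding RNA, upper quartile, quantile), the block (none, or mouse means), the samples (only the groups compared, each tumor or mouse left out), the model (a flank term, robust moderation) and the thresholds (those of the study, fold above 2, p below 0.01, FDR below 0.1). Gene positions are from GENCODE v44 on GRCh37, where all 47 matched once, and 24 of the 47 share exon sequence with another annotated gene. Promoter windows are RefSeq sequences of GRCh38.p14. Protein sequences were not used here. Tables were made with Python 3.11.15, pandas 2.3.3, numpy 2.4.6 and data.table (version 1.17.8), and plots with matplotlib 3.10.9.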

Additional observations from a re-analysis of the deposited data

Results flagged for a closer look

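In 7 of the 188 gene-and-group sets of 4 tumors, 1 tumor lay far from the other 3 by Dixon's ratio, where chance alone flags about 1 set in 20. Of these, 3 were V tumor 19R, high against the other V tumors. It had 10.3 FPKM of MCM10, against 7.17 in each of the others, 13.3 FPKM of PRIM2, against 12.2 to 12.3, and 129 FPKM of PCNA, against 91.7 to 94.7. Among J tumors, 26R was low for ORC5 (25.9 FPKM, against 28.8 to 28.9), 29R was low for MCM4 (45.4 FPKM, against 52.8 to 54.0) and 26L was low for POLE (3.92 FPKM, against 4.55 to 4.65). Control tumor 5R was low for RFC1 at 27.6 FPKM, against 38.2 to 38.7 in the other control tumors.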

How the results depend on the processing

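Of the 43 genes called in J+V against control, 36 kept their call and direction under every alternative that tested them at an adjusted p below 0.05. The call was lost under at least 1 alternative by 7. CDT1, GINS4, POLD1 and POLE were not tested with the filter of an FPKM averaging 5 or more, where 39 of 43 genes tested were called. The count in J+V against control was 38 to 43 except under the study's thresholds, which left 19 (3.83% of all genes). Under these thresholds J+V against J gave 16 and J+V against V gave 0, and the shares of all genes for these comparisons are not given here. The count in J+V against V was 6 with mouse means (1.74% of all genes), 16 with only the groups compared (1089 of 12962 genes) and 36 with a common sum (21.6%). With a tumor or mouse left out it ran from 8 (2.42%, without mouse 33) to 34 (2131 of 13388 genes, without J+V tumor 34L). When a tumor or mouse was left out, the count in V against control was 0 to 3, where the fit with 3 called 3.16% of all genes. That of the departure from the sum was 0 to 12, where the fit with 12 called 2.70% of all genes. The count in J against V was 0 to 1 in these fits. ORC2, which was not called, had estimates of -0.05 to 0.06 when a tumor or mouse was left out and -0.21 with a common sum, and ORC5, also not called, was -0.07 with a common sum. With a pseudocount of 1 the ratios had differences of -1.29 (ORC1/ORC2), -0.57 (MCM2/MCM8), -0.57 (PRIM1/PRIM2), -0.61 (RFC4/RFC1) and 0.30 (TIPIN/TIMELESS), with adjusted p of 0.0571 for the first 4 and 0.0914 for the last. When 1 tumor was left out these differences were -1.53 to -1.31, -0.69 to -0.48, -0.69 to -0.47, -0.73 to -0.54 and 0.19 to 0.44. No other ratio changed its call. No paired analysis was possible because each mouse received 1 treatment and replicate numbers were given in accession order. The depth behind the FPKM is unknown, so the reliability of low genes such as CDT1 could not be set. The cause of these changes was not tested.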
